A study of Mus musculus with 2 samples.

Results

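Ribosomal protein genes encode the proteins that, with ribosomal RNA, build the large (Rpl) and small (Rps) subunits of the cytosolic ribosome. Their transcripts are among the most abundant of a growing cell, and most carry a 5′ terminal oligopyrimidine tract, a run of C and T at the transcript start that couples their translation to mTOR signalling. In human patients, loss of 1 copy of any of several of these genes causes Diamond-Blackfan anemia, in which erythroid progenitors fail while other marrow lineages are largely spared. The genes described here were taken by symbol: all that start with Rpl or Rps, leaving out the 10 rows of the Rps6k kinases and the 16 rows with -ps in the symbol. This left 87 symbols, of which 86 (52 Rpl and 34 Rps) had at least 20 UMIs over both libraries, out of 27998 genes in the table. The 1 symbol under that minimum was Rpl10l, a testis paralog of Rpl10, with 0 UMIs. A UMI is a molecular tag that counts 1 captured transcript at its 3′ end, so counts were not divided by transcript length. The symbol rule also keeps Rps19bp1, a binding partner of Rps19, and Rpl7l1, a nucleolar relative of Rpl7, neither of which is a subunit of the mature ribosome, and Rpl6l, which GENCODE M21 annotates as a processed pseudogene.

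The series holds 2 mouse bone marrow single-cell libraries made with 10x Genomics v2 chemistry, 1 per group. The Car1-GFP library came from CD45+ cells that expressed the Car1-GFP reporter, pooled from 3 naive Car1-GFP reporter mice on the C57BL/6 background. The marrow library came from CD45+ CD3- Ly6G- cells pooled from 3 naive C57BL/6 mice. The design gives 10000 sorted cells loaded.

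After filtering, 2400 Car1-GFP cells with a median of 15512.5 UMIs and 6268 marrow cells with a median of 1031 UMIs were kept, and 14 barcodes occurred in both libraries. Because each group has 1 library, no test between groups was possible, and all intervals are 95% exact binomial intervals, unless said otherwise, that cover counting error only. Library, sort, reporter strain and depth all vary with the group and cannot be told apart. The labels do not give the construct of the reporter. Car1, the carbonic anhydrase behind the reporter, stood at 594 CPM (UMIs scaled to a common library total) in Car1-GFP cells, against 102 CPM in marrow cells. The sort markers were partly visible: Ptprc (CD45) had 12.97 CPM in Car1-GFP cells, against 303 CPM in marrow cells, Cd3e 0 and 1.69 CPM, and Ly6g 0.397 and 85.0 CPM, with Ly6g among the leading genes of 2 marrow clusters. The Y-linked genes Ddx3y and Eif2s3y had 1143 and 1819 UMIs in the Car1-GFP library and 0 in the marrow library. Xist was present in both (418 and 1215 CPM). Y-linked transcripts were thus found in 1 of the pools, so the sex of the pooled mice also varies with the group. Among the members Rps4x, Rpl10, Rpl36a and Rpl39 lie on chromosome X.

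Cells were grouped by clustering each library without the ribosomal protein genes and naming clusters from marker lists, so that every class is called by the markers it resembles (erythroid-like and so on). Of the Car1-GFP cells 2197 were erythroid-like and 203 stayed unnamed. The marrow library gave 10 classes with at least 50 cells. Its stem and multipotent progenitor-like cluster was led by Pf4, a platelet gene, beside Angpt1 and Meis1, and its B lineage-like cluster by Jchain, a plasma cell gene, beside Ebf1.

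The oligopyrimidine tract is a property of the sequence at the transcript start that the symbol rule did not use. RefSeq promoter sequences of build GRCm38.p6 were at hand for 66 of the 87 symbols. A run of at least 7 C or T bases on the sense strand, between 30 bases before and 50 bases after the annotated start, was present in 54 of these 66 (81.8%) and in 46.0% of the other 26952 genes. The letters CTTTCC on the sense strand stood in the same window in 30.3% of members and 4.29% of the other genes. Over the whole 300-base promoter and on either strand, CCGGAAG, the core letters of ETS family sites, was found in 39.4% of members and 9.86% of the others, and AAGATGGCG, the letters of a Yy1 motif, in 6.06% and 1.63%. A match is a description of letters and not a site. The 7 windows below run from 30 bases before to 19 bases past the annotated start base, 5′ to 3′ on the gene's strand, with the longest C or T run in capitals. They show a member called higher between the libraries (Rpl14), members called lower (Rpl35, Rpl38 and Rps27), a Diamond-Blackfan anemia gene (Rps10) and the paralogs Rpl22l1 and Rpl3l.

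Rpl14: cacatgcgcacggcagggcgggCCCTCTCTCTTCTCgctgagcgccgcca
Rps10: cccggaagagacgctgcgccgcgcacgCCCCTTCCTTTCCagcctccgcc
Rpl22l1: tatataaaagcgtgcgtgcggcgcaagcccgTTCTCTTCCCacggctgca
Rpl35: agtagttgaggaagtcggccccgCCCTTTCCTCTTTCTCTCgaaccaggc
Rpl38: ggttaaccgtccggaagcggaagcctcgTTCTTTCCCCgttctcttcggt
Rps27: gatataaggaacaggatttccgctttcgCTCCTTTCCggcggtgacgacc
Rpl3l: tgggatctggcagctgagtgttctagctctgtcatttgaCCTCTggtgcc

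These lie at chr9:120571487-120571536 (plus strand) for Rpl14, chr17:27635225-27635274 (minus) for Rps10, chr3:28805478-28805527 (plus) for Rpl22l1, chr2:39005112-39005161 (minus) for Rpl35, chr11:114668550-114668599 (plus) for Rpl38, chr3:90213629-90213678 (minus) for Rps27 and chr17:24727796-24727845 (plus) for Rpl3l. The run was 14 bases long in Rpl14, 13 in Rps10, 10 in Rpl22l1, 18 in Rpl35, 10 in Rpl38 and 9 in Rps27. It was 5 bases long in this window of Rpl3l, whose longest run over the wider window was 9. Rpl14, with the 14-base run, took a larger part of ribosomal protein UMIs in Car1-GFP cells than in marrow cells, and Rpl35, with the 18-base run, a smaller part.

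Ribosomal protein genes together made up 33.9% of all UMIs in the Car1-GFP library and 19.5% in the marrow library. Each cell had a median share of 34.7% in the Car1-GFP library and 18.6% in the marrow library. With globin, mitochondrial, S100a8 and S100a9 UMIs taken out of the total, the shares were 35.6% and 22.6%. S100a8 and S100a9, which together form calprotectin, were themselves 0.0118% of Car1-GFP UMIs and 11.1% of marrow UMIs.

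Within the marrow library the share ran from 30.5% in erythroid-like cells to 6.87% in neutrophil-like cells, a ratio of 4.44 (interval 4.41 to 4.47). The progenitor classes followed erythroid-like cells closely: stem and multipotent progenitor-like cells had 30.01% and granulocyte-monocyte progenitor-like cells 29.1%. The order of the top classes depended on the weighting, since the median cell had 30.4% in the stem and multipotent progenitor-like class and 29.7% in the erythroid-like class. Lymphoid, basophil and dendritic classes formed a middle group. NK and innate lymphoid-like cells had 24.2%, basophil/mast-like cells 23.0%, conventional dendritic-like cells 22.6%, plasmacytoid dendritic-like cells 20.6%, B lineage-like cells 20.4% and monocyte-like cells 19.9%. The intervals of the basophil/mast-like (22.7 to 23.2%) and conventional dendritic-like (22.4 to 22.9%) classes overlapped, and so did those of the plasmacytoid dendritic-like (20.5 to 20.8%) and B lineage-like (20.2 to 20.6%) classes. When cells with at least 1000 UMIs were clustered and named anew, the order within the middle group was different: plasmacytoid dendritic-like cells had 25.9% (262 cells), basophil/mast-like cells 23.6% (58 cells), NK and innate lymphoid-like cells 20.6% (58 cells) and monocyte-like cells 19.97% (744 cells). The erythroid-like class (31.04%) and the neutrophil-like class (6.72%) kept the ends of the order there. The neutrophil-like class stood apart from all others: the first to the third quartile of its 2063 cells ran from 4.43% to 7.16%, against 17.4% to 21.9% in the 1751 monocyte-like cells.

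**Figure D1:**
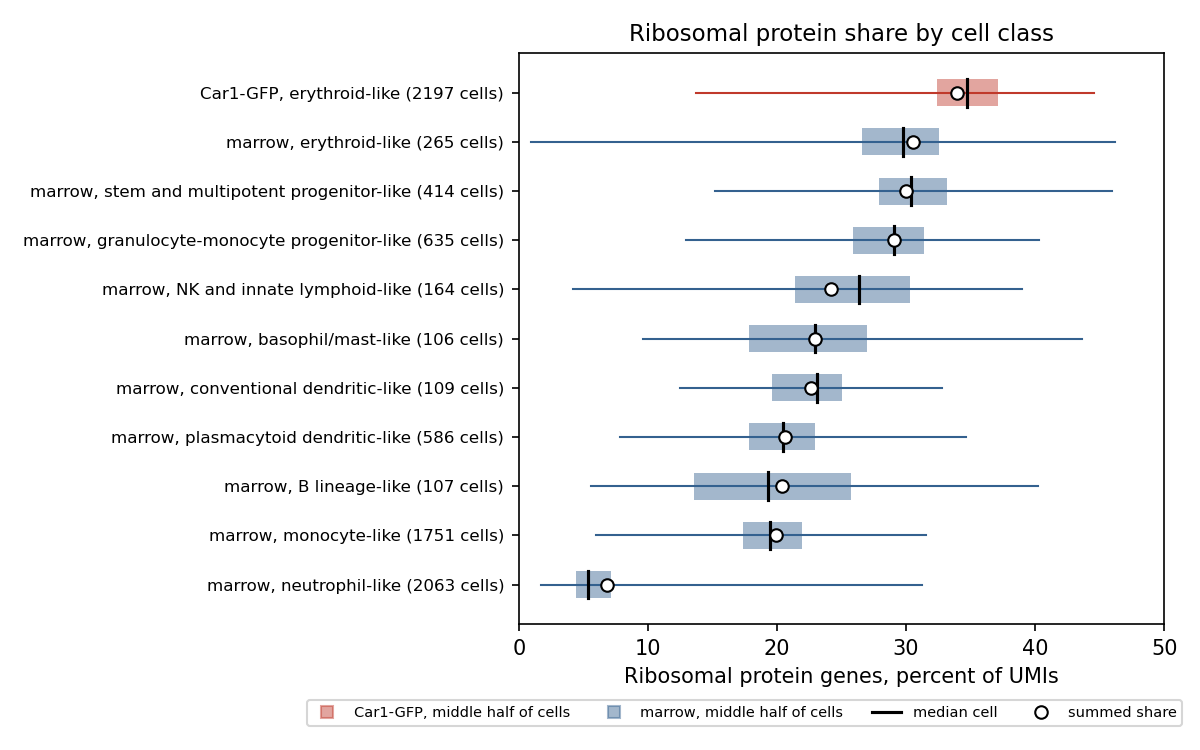
Share of UMIs from 86 ribosomal protein genes (x axis, percent) in the Car1-GFP erythroid-like class and the 10 marrow classes (rows). Boxes span the first to the third quartile of cells, black lines mark the median cell, thin lines reach the lowest and highest cell and circles give the summed share. Car1-GFP erythroid-like cells sit highest with a median cell of 34.7% and neutrophil-like marrow cells lowest with 5.39%.

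In UMIs rather than shares, a neutrophil-like cell carried a median of 59 ribosomal protein UMIs beside 970 other UMIs, and a monocyte-like cell 180 beside 748. An erythroid-like marrow cell carried 791 beside 1839, and an erythroid-like Car1-GFP cell 5696 beside 10817. The neutrophil-like cell thus held fewer ribosomal protein UMIs than the monocyte-like cell and more other UMIs, S100a8 and S100a9 included. Median depth ran from 790.5 UMIs in plasmacytoid dendritic-like cells to 2639 in erythroid-like cells. The neutrophil-like cells remained in the library although Ly6G+ cells were sorted out of it, and S100a8 and S100a9 were 32.5% of their UMIs and 1.48% to 7.57% in the other 9 classes. Leaving out globin, mitochondrial, S100a8 and S100a9 UMIs gave them a share of 10.4%, still under the 20.7% of monocyte-like cells computed the same way, and the ratio of erythroid-like to neutrophil-like cells became 3.13.

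The 3 clusters within the neutrophil-like class differed as well. The cluster led by Fcnb, Camp and Ngp, genes of neutrophil granules, had 8.23% in 1014 cells. The cluster led by Ly6g, Lcn2 and Ltf, of which Lcn2 and Ltf also encode granule proteins, had 5.33% in 664 cells. The cluster led by Mmp8, Mmp9, Retnlg and Cxcr2, the last of which encodes a chemokine receptor of mature neutrophils, had 4.49% in 385 cells. Without globin, mitochondrial, S100a8 and S100a9 UMIs the 3 values were 11.96%, 8.61% and 6.95%, in the same order. Median depth was 1304.5, 962.5 and 746 UMIs per cell in the same order, and its part in the differences was not tested.

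Erythroid-like cells of both libraries can be set side by side. Their share of non-globin UMIs was 34.4% in the Car1-GFP library and 31.1% in the marrow library. Among the Car1-GFP clusters the share of non-globin UMIs ran from 37.7% in 542 cells with a median of 6588.5 UMIs to 30.9% in 25 cells in which globin made up 49.2% of UMIs. The cluster of 542 cells was led within its library by Vim, Plac8, Sox4 and Egr1, with Gata2 also among its leading genes. Across all 2400 Car1-GFP cells the share of non-globin UMIs went with depth: Spearman's rho against UMIs per cell was -0.39. Grouped by depth, the 240 deepest cells (median 38147.5 UMIs) had 33.0% of non-globin UMIs and the 240 shallowest (median 5231 UMIs) 35.5%. The highest share, 36.6%, was in the bin next to the shallowest (median 6350 UMIs). The parts of depth and of cell state in these differences were not tested.

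Globin transcripts accumulate as erythroid cells mature, so the globin share of a cell was used to order the Car1-GFP cells. Ribosomal protein genes made up 32.4% of non-globin UMIs in the 240 cells with the most globin and 34.6% in the 240 with the least, a difference of -2.19 percentage points (normal approximation interval -2.25 to -2.12). With all cells in 10 bins of 240, from the least globin (bin 1) to the most (bin 10), bins 1 to 8, in which globin made up 0.441% to 0.675% of UMIs, had shares between 34.5% and 34.97%. Bin 9 (1.24% globin) had 33.2%, so bins 9 and 10 lay below all others. The ordering is narrow at its low end, since no Car1-GFP cell had under 0.211% globin, whereas globin was 0.0153% to 0.0291% of summed UMIs in the 9 marrow classes that were not erythroid-like. Over the 2400 cells, which share 1 library, Spearman's rho between the 2 shares was -0.24, while globin share and UMIs per cell had a rho of -0.09.

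Progenitor and red cell genes differed between the ends of the same order. Kit, the stem cell factor receptor, stood at 12.98 CPM of non-globin UMIs in bin 10 and 53.2 in bin 1. Gata2, a progenitor transcription factor, stood at 18.1 and 70.2. Slc4a1, the band 3 anion exchanger of the red cell membrane, stood at 185 and 9.37. Over bins 1 to 8 Kit lay between 43.7 and 53.2, Gata2 between 51.5 and 80.8 and Slc4a1 between 9.37 and 14.3. Bins 9 and 10 lay outside these ranges for each of these genes, so the differences did not build up steadily along the order. S100a8 stood at 289 CPM of non-globin UMIs in bin 1 and at 29.1 to 114 in the other bins, and its part in the values of bin 1 was not tested. Mitochondrial transcripts were 3.45% of UMIs in bin 10 and 3.37% in bin 1, and median depth was 15453.5 and 13186 UMIs.

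**Figure D2:**
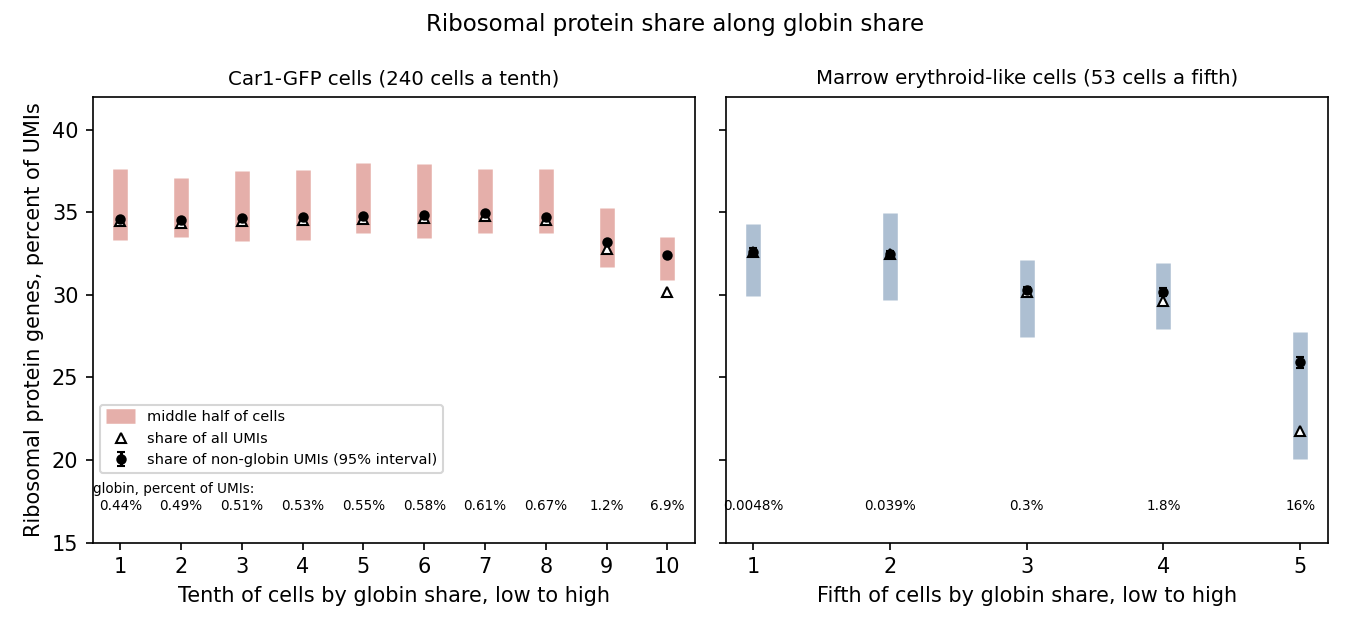
Share of UMIs from ribosomal protein genes (y axis, percent) in groups of cells ordered by globin share (x axis, low to high), for Car1-GFP cells in 10 bins of 240 cells and erythroid-like marrow cells in 5 bins of 53. Bars span the first to the third quartile of cells, dots give the share of non-globin UMIs with its interval and triangles the share of all UMIs. The Car1-GFP share of non-globin UMIs is 32.4% in its highest bin and 34.6% in its lowest, and the marrow share 25.9% and 32.6%.

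The 265 erythroid-like marrow cells showed a larger difference over a wider globin range. In 5 bins of 53 cells, the highest (16.01% globin) had 25.9% of non-globin UMIs in ribosomal protein genes and the lowest (0.00483% globin) 32.6%, a difference of -6.71 percentage points. The bins between them, from low to high globin, had 32.5%, 30.3% and 30.2%. Median depth was 1397 UMIs in the highest bin and 3259 in the lowest, rho over the 265 cells was -0.55 against globin and 0.49 against depth, and the part of depth was not tested. Cut points of globin share chosen after seeing the data gave small groups at the top. In the Car1-GFP library 6 cells with 20% to 40% globin had 26.7% and 24 cells with more had 30.8%, so the share was not lowest where globin was highest. In the marrow library the same bins held 6 and 4 cells, with 15.8% and 9.44%.

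Members were next compared with one another, each as its share of all ribosomal protein UMIs, so that the difference in total share between the libraries drops out. A member was called departing if its share differed by at least 2-fold with an interval that excluded no difference. Between the libraries 9 members were higher in Car1-GFP cells, 12 were lower and 65 were neither. As shares of all UMIs, 44 of the 86 members were higher in Car1-GFP cells by 2-fold or more and 5 were lower by that size. In erythroid-like cells of both libraries 9 of 85 measured members were higher and 9 lower by that size, beside 17.8% of all genes higher and 27.4% lower. The 9 higher include Rpl39l, which had 31 UMIs in Car1-GFP and 0 in marrow erythroid-like cells and so no finite ratio. Without it 8 were higher. Among the 12076 genes measured over all cells 22.5% were higher and 32.7% lower to this degree, and 53.7% passed the 2-fold size with the interval in either direction. The median member was at a log2 ratio of 1.02 on that scale and the median of all genes at -0.23. TMM scaling would move every such ratio up by 0.39 on the log2 scale, and then 63 members were higher by 2-fold or more and 4 lower. Rpl37a alone changed sign under it.

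The lower members were mostly proteins with very short chains. Rps29, a small zinc-binding protein of the small subunit and the most abundant member of the marrow library, had 3386 CPM in Car1-GFP cells, against 9421 CPM in marrow cells. Its part of ribosomal protein UMIs was 0.997% in Car1-GFP cells, against 4.82% in marrow cells (log2 -2.27, interval -2.29 to -2.26). Rps28, also of the small subunit, had 2251 CPM and 6556 CPM, and a log2 ratio within ribosomal protein UMIs of -2.34. Rpl35, which sits at the exit tunnel of the large subunit, had 2169 CPM and 5126 CPM, with a log2 ratio of -2.04. These members were lower in the Car1-GFP library on both scales, against a total ribosomal protein share that was higher there.

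Rpl41, the smallest protein of the ribosome, made up 1.40% of ribosomal protein UMIs in the Car1-GFP library and 4.48% in the marrow library. Rpl38, whose loss in mice causes skeletal patterning defects, made up 0.551% and 1.65%. Rps27, a zinc finger protein of the small subunit, made up 0.999% and 2.97%, and Rps27rt, its retrogene copy on chromosome 9, 0.208% and 1.29%, the lowest ratio among well counted members (log2 -2.64). Rps27 and Rps27rt are near-identical over much of their sequence, so how the counting split their reads is uncertain. Rpl37, Rps26 and Rpl37a had log2 ratios of -1.42, -1.27 and -1.12. The other 2 lower members rest on few UMIs and passed the minimum through 1 library each: Rpl3l, a heart and skeletal muscle paralog of Rpl3, had 1 UMI in the Car1-GFP library and 37 in the marrow library (log2 -8.37, interval -13.71 to -5.80), and Rpl39l, a testis paralog of Rpl39, had 31 and 12 (log2 -1.79, interval -2.80 to -0.70).

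The higher members were longer proteins. Rpl8, a core protein beside the peptidyl transferase centre, had 6800 CPM in Car1-GFP cells, against 1381 CPM in marrow cells, or 2.003% and 0.707% of ribosomal protein UMIs (log2 1.503, interval 1.48 to 1.53). Rpl7 had 3959 CPM and 869 CPM, with a log2 ratio of 1.39. Rpl14 had 8211 CPM and 1942 CPM, with a log2 ratio of 1.28, and Rplp0, the base of the stalk that recruits elongation factors, had 8300 CPM and 1992 CPM, with a log2 ratio of 1.26. Rps2, at the messenger RNA entry of the small subunit, Rpl3, also near the peptidyl transferase centre, Rpl10a, Rps4x and Rpl4 had log2 ratios of 1.21, 1.16, 1.13, 1.08 and 1.02. Just inside and outside the 2-fold line lay Rpl4 at 1.02 and Rpsa at 0.93 on the higher side, and Rpl37a at -1.12 and Rpl27 at -0.76 on the lower side.

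Together the 12 lower members took 8.07% of ribosomal protein UMIs in the Car1-GFP library and 27.4% in the marrow library, and the 9 higher members 15.5% and 6.61%. The leading members accordingly differed. In the Car1-GFP library the 5 most abundant were Rpl32 (9102 CPM), Rps19 (8950), Rpl13 (8599), Rplp0 (8300) and Rps18 (8271). In the marrow library they were Rps29 (9421 CPM), Rpl41 (8744), Rps28 (6556), Rps27 (5806) and Rpl37a (5707). Rps29 ranked 51 of the 86 members in the Car1-GFP library, and Rpl32 ranked 11 in the marrow library.

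When only erythroid-like cells of both libraries were compared, 10 of the 12 lower calls and 4 of the 9 higher calls were kept. There 4 members were higher and 10 lower, and all 14 of these had the same call over all cells. For comparison, 32% of 10969 genes passed the same size and interval as shares of all UMIs. Rps27rt (-2.20), Rps28 (-2.14), Rpl35 (-2.11), Rps29 (-1.93) and Rpl41 (-1.93) were the lowest and Rpl7 (1.37), Rpl8 (1.22), Rpl3 (1.22) and Rps4x (1.07) the higher members. Rpl10a was at 0.98, Rpl4 at 0.93, Rpl14 at 0.90, Rplp0 at 0.80 and Rps2 at 0.44 there, no longer past 2-fold. Both calls on the rarely counted paralogs were lost, since erythroid-like marrow cells held 2 UMIs of Rpl3l and 0 of Rpl39l. Limiting both sides to erythroid-like cells with under 1% globin (1824 and 175 cells), a choice made after seeing the data, again gave 4 higher and 10 lower members. As a share of all UMIs, the members made up 33.9% in Car1-GFP and 30.5% in marrow erythroid-like cells. Without the 12 lower members the values were 32.1% and 24.6%. Those 12 were picked for being lower in Car1-GFP cells, so leaving them out widens the difference by construction.

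Coding length ordered the members between the libraries. Among the 83 members with at least 100 UMIs and an annotated coding length, Spearman's rho between the log2 ratio and coding length was 0.79 over all cells and 0.81 in erythroid-like cells, as a description over genes that share the same 2 libraries. The 10 well counted lower members had coding lengths of 75 to 369 bases (median 252), the 9 higher ones 648 to 1257 bases (median 810), and the 64 others 153 to 891 bases (median 453). The 11 members under 300 bases had a median log2 ratio within ribosomal protein UMIs of -1.57, and the 13 members of 700 to 1000 bases a median of 0.80. Over 11061 genes outside the family and all lengths, rho between coding length and the log2 CPM ratio was -0.24. Within the lengths of the members the median log2 CPM ratio of these other genes also differed by length, with 0.01 under 300 bases, 0.15 from 300 to 400, 0.64 from 400 to 500, 0.49 from 500 to 700 and 0.55 from 700 to 1000 bases. The medians of the members in these bins were -0.78, 0.67, 0.97, 1.29 and 1.60, a wider span. From 1000 to 1500 bases the 2214 other genes were back at a median of 0.14, while the 2 members there had 1.88. Not every short member was low: Rpl39 (153 bases) was at -0.32 and Rps27l (252 bases) at -0.05.

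**Figure D3:**
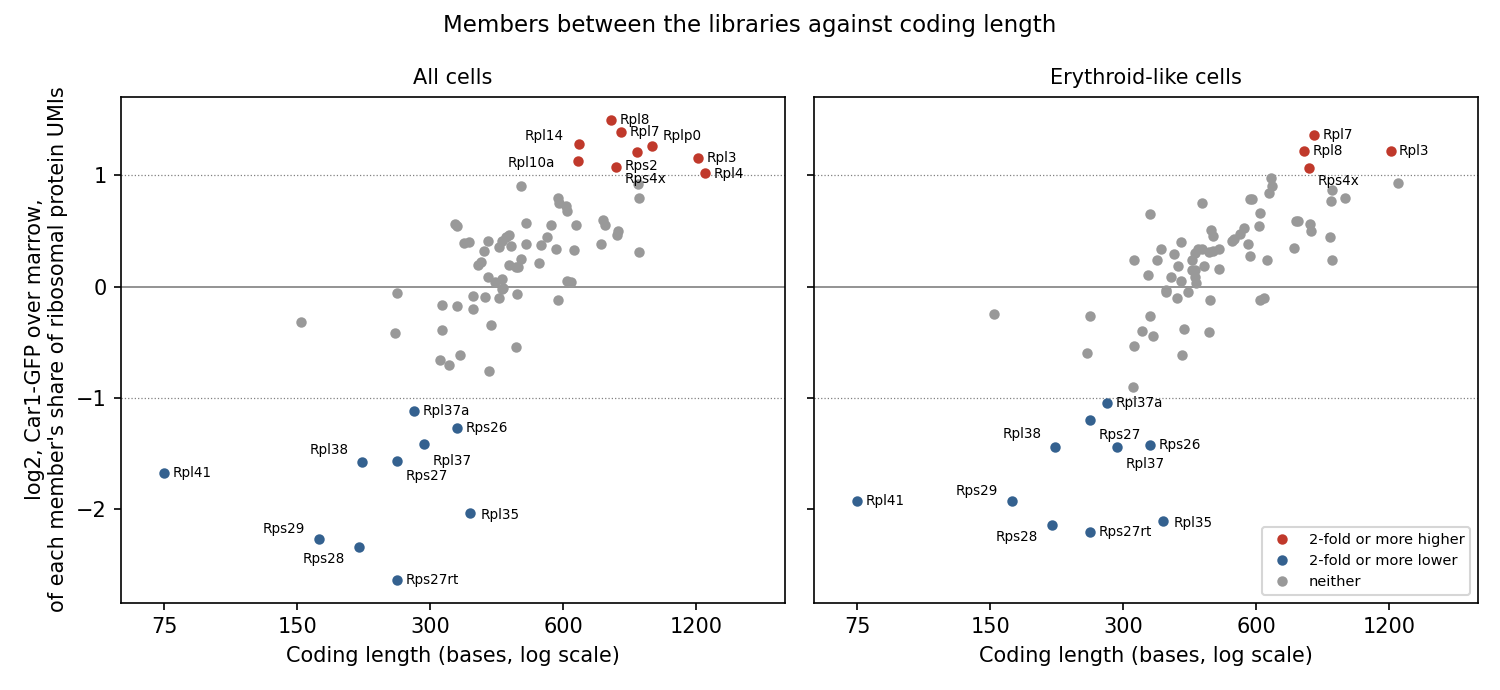
Log2 ratio of Car1-GFP over marrow of each member's share of ribosomal protein UMIs (y axis) against its coding length in bases (x axis, log scale), over all cells and over erythroid-like cells, for 83 members. Red points are at least 2-fold higher, blue at least 2-fold lower and grey neither; dotted lines mark 2-fold. Lower members have coding lengths of 75 to 369 bases and higher members 648 to 1257 bases in the panel of all cells.

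Within the marrow library, most members kept close proportions between a class and all other marrow cells. Of 860 pairs of a member and a class with at least 50 cells, 1 passed 2-fold against all other marrow cells: Rpl3l in neutrophil-like cells, with 18 UMIs there and 19 in all other cells (log2 3.04, interval 2.03 to 4.05). As shares of all UMIs 101 of the pairs passed, while 18.2% of 104290 pairs of any gene and a class did. Among the 84 members with at least 100 UMIs, the median absolute log2 ratio was 0.09 to 0.21 in each class, largest in neutrophil-like cells. Single classes lay further apart from one another. The log2 ratio of a member spanned from 0.24 (Rpl37) to 1.70 (Rps2) between its lowest and highest class. The relation to coding length seen between the libraries was weaker and of either sign between classes, with rho from -0.46 in granulocyte-monocyte progenitor-like cells to 0.43 in stem and multipotent progenitor-like cells.

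The members with the widest ranges over classes, named after their values were seen, were Rps2 and Rpl31. Rps2 made up 1.21% of ribosomal protein UMIs in erythroid-like cells and 0.611% in the other marrow cells (log2 0.99, interval 0.93 to 1.05), just under 2-fold. In the remaining classes it ran from 0.766% in stem and multipotent progenitor-like cells to 0.448% in neutrophil-like cells. Rplp0, Rplp1 and Rpl12, all of the stalk and its base, followed the same direction. Their log2 ratios were 0.57, 0.57 and 0.51 in erythroid-like cells and -0.53, -0.67 and -0.79 in neutrophil-like cells. Rplp2, the partner of Rplp1 in the stalk, did not share these values, with 0.11 in erythroid-like cells, -0.01 in neutrophil-like cells and its lowest value, -0.30, in plasmacytoid dendritic-like cells.

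Rpl31, at the rim of the exit tunnel, made up 1.51% of ribosomal protein UMIs in plasmacytoid dendritic-like cells and 0.801% in the other marrow cells (log2 0.92, interval 0.85 to 0.99). In conventional dendritic-like cells it made up 0.527%, with a log2 ratio of -0.70, so the dendritic classes lay at the ends of its range. Rps9 was at 0.63 in neutrophil-like cells and -0.47 in granulocyte-monocyte progenitor-like cells. Rps27 was higher in plasmacytoid dendritic-like cells (0.52) and NK and innate lymphoid-like cells (0.45) than in erythroid-like cells (-0.44), and Rps12 was at 0.52 in erythroid-like and -0.65 in conventional dendritic-like cells.

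**Figure D4:**
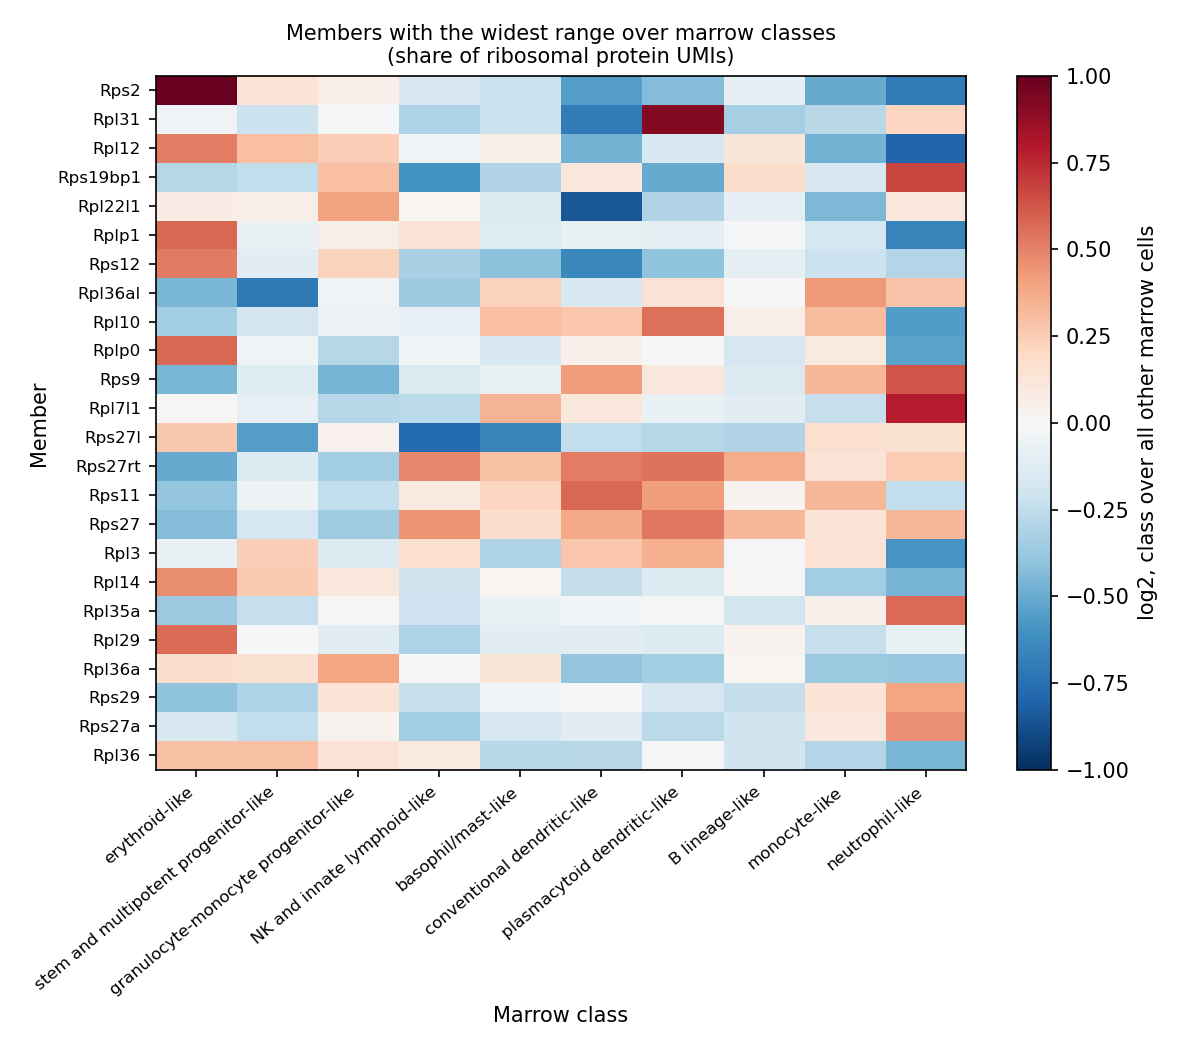
Log2 ratio of a marrow class (columns, ordered by total ribosomal protein share) over all other marrow cells of each member's share of ribosomal protein UMIs, for the 24 members with the widest range (rows). Red is higher and blue lower in the class. Rps2 in erythroid-like cells (0.99) and Rpl31 in plasmacytoid dendritic-like cells (0.92) are the reddest squares of the map, and Rpl22l1 in conventional dendritic-like cells (-0.85) the bluest.

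Along globin share in the Car1-GFP library no member departed. Of the 84 members with at least 20 UMIs in bins 10 and 1 together, all lay between -0.24 and 0.28 on the log2 scale, whereas 19.9% of 8928 genes passed the same size and interval as shares of all UMIs. Rpl41 made up 1.58% of ribosomal protein UMIs in bin 10 and 1.30% in bin 1, and Rps26 0.494% and 0.411%. Rps28 made up 0.578% in bin 10 and 0.684% in bin 1. Rpl8 (0.19) and Rps2 (0.21) were slightly higher in bin 10.

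Several members have close paralogs or copies, and the balance within a pair does not use the total share. Rpl36al made up 37.3% of the Rpl36al and Rpl36a UMIs in Car1-GFP erythroid-like cells and 25.8% (24.3 to 27.3%) in marrow erythroid-like cells. Within the marrow library it ran from 22.7% in stem and multipotent progenitor-like cells to 43.5% in monocyte-like cells and 43.4% in neutrophil-like cells, with granulocyte-monocyte progenitor-like cells at 29.0%. Monocyte-like and neutrophil-like cells had higher values than all 3 progenitor and erythroid classes, with intervals that did not overlap. The intervals of plasmacytoid dendritic-like cells (41.0%, 38.4 to 43.6%) and conventional dendritic-like cells (37.5%, 31.7 to 43.5%) overlapped those of monocyte-like and neutrophil-like cells.

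Rps27l, a p53-induced paralog of Rps27, made up 26.9% of the Rps27l and Rps27 UMIs in Car1-GFP erythroid-like cells and 16.1% in marrow erythroid-like cells, which was the highest of the marrow classes. The lowest was NK and innate lymphoid-like cells with 5.21% (4.203 to 6.37%). Between the erythroid-like cells of the 2 libraries Rps27l itself was not higher within ribosomal protein UMIs (log2 -0.26). Rps27, one of the lower members, was at -1.20 there. Rpl22l1, which in mice increases when Rpl22 is lost, made up 53.7% of its pair in Car1-GFP erythroid-like cells and 49.4% in marrow erythroid-like cells. In the other marrow classes it ran from 57.5% in neutrophil-like cells to 43.8% in monocyte-like cells and 42.3% in conventional dendritic-like cells (34.4 to 50.5%, from 156 UMIs of the pair).

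Rps27rt behaved differently from these pairs. Its part of the Rps27rt and Rps27 UMIs was 17.2% in Car1-GFP cells and 30.3% in marrow cells, and across the 10 marrow classes it stayed between 29.3% and 32.3%. It therefore differed between the libraries and hardly between classes. Rpl6l, the annotated pseudogene close to Rpl6, showed the same kind of pattern, with 13.2% of its pair in Car1-GFP cells, 17.8% in marrow cells and 16.6% to 19.4% over the marrow classes. Rpl7l1 made up 3.72% of its pair with Rpl7 in Car1-GFP cells and 6.28% in marrow cells. Rpl39l made up 0.0198% and 0.0552% of its pair with Rpl39, and Rpl3l at most 2.49% of its pair with Rpl3, in neutrophil-like cells.

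**Figure D5:**
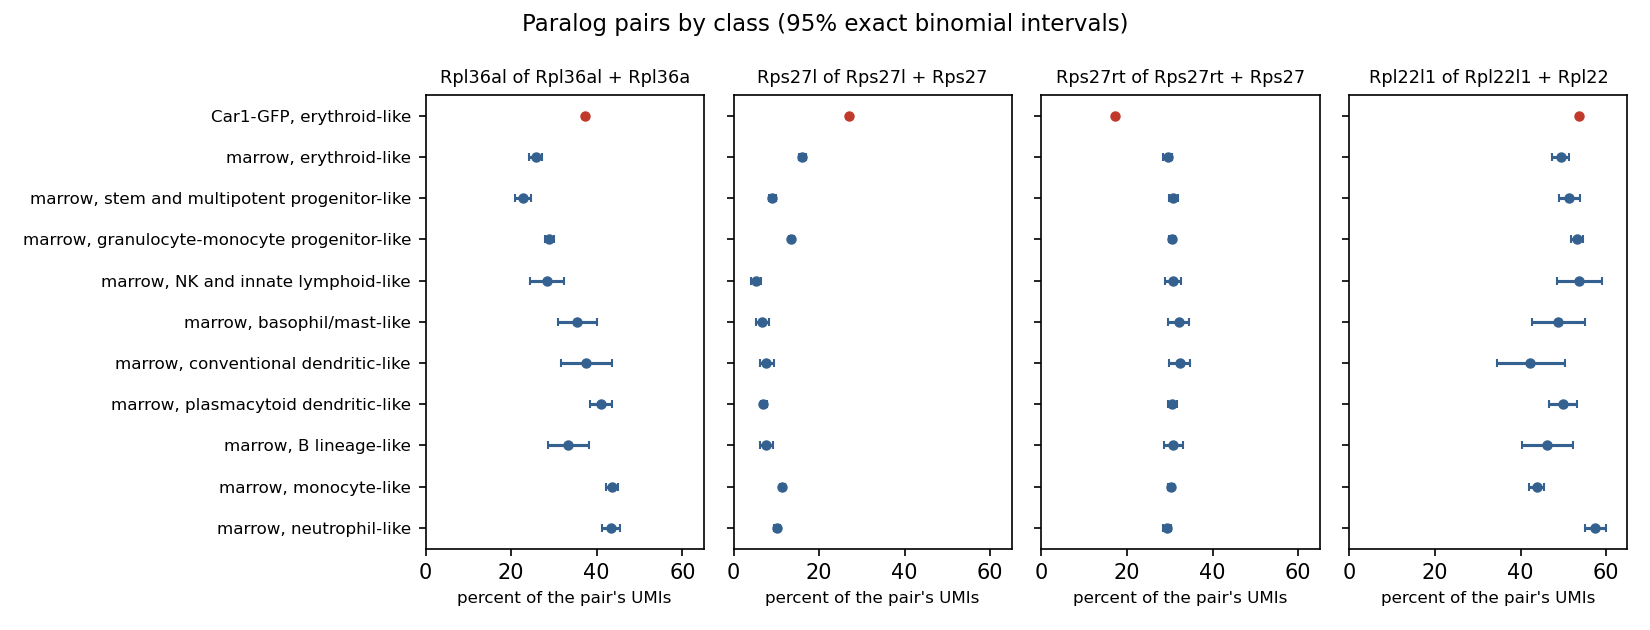
Part of a pair's UMIs held by the paralog (x axis, percent) for 4 pairs, in Car1-GFP erythroid-like cells (top row, red) and 10 marrow classes (blue), with intervals. Rps27rt lies at 17.2% in Car1-GFP erythroid-like cells and between 29.3% and 32.3% in all marrow classes, whereas Rpl36al runs from 22.7% to 43.5% among the marrow classes.

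The 13 members listed here as mutated in Diamond-Blackfan anemia did not move as a block. The list was set beforehand and may not hold every such gene. As shares of all UMIs 5 of them were higher in Car1-GFP cells by 2-fold or more, beside 22.5% of all genes, and 2 were lower by that size, beside 32.7%. Of all 86 members 44 were higher and 5 lower by that size. Their median log2 ratio was 0.87, and that of all 86 members was 1.02. Rps19, the member most often mutated in patients, had 8950 CPM in Car1-GFP cells, against 4907 CPM in marrow cells. Among the marrow classes it ran from 8376 CPM in stem and multipotent progenitor-like cells to 1694 CPM in neutrophil-like cells, with 7226 CPM in erythroid-like cells, so it was not highest in erythroid-like cells of that library. Rpl5 and Rpl11, which with 5S ribosomal RNA can bind and inhibit Mdm2, had 1777 and 3915 CPM in Car1-GFP cells, against 588 and 1734 CPM in marrow cells.

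Of the remaining list members Rps7 (log2 CPM ratio 1.59), Rpl26 (1.21) and Rps10 (1.18) were the others past 2-fold on the higher side. Among those between were Rps19 (0.87), Rpl15 (0.85), Rps24 (0.71), Rpl35a (0.09) and Rps26 (-0.48), and Rps29 (-1.48) and Rps28 (-1.54) were past it on the lower side. Within ribosomal protein UMIs none of the 13 was called higher and 3 were called lower, Rps26, Rps28 and Rps29, and this was so over all cells and in erythroid-like cells.

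Large subunit members took 56.5% of ribosomal protein UMIs in the Car1-GFP library and 54.2% in the marrow library. Erythroid-like cells of the marrow library, at 56.5%, matched the Car1-GFP value, and neutrophil-like cells, at 52.1%, were lowest of the 10 classes.

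Other genes of translation were compared as shares of all UMIs, beside the 22.5% of all genes that were higher by 2-fold or more in Car1-GFP cells and the 32.7% that were lower by that size. All 6 genes listed as elongation factors were higher by that size (median log2 ratio 1.88). Eef1e1 carries the family name but encodes a partner of the tRNA synthetases. Eef1g (2.24), Eef1d (2.14), Eef1a1 (1.93) and Eef1e1 (1.83) had the largest ratios, and Eef1a1, which brings aminoacyl-tRNA to the ribosome, had 236522 UMIs in the Car1-GFP library and 12038 in the marrow library. Of 24 genes listed as initiation factors 15 were higher and 0 lower, led by Eif3i (2.32), Eif3l (2.22), Eif2s1 (2.19) and Eif5a (2.17). The list also holds Eif4ebp1 (1.93), an inhibitor of Eif4e. In erythroid-like cells of both libraries 2 of the elongation factors still passed 2-fold on the higher side, and for the initiation factors 13 were higher and 2 lower, beside 17.8% of all genes higher and 27.4% lower there.

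Of 32 ribosome biogenesis genes 26 passed 2-fold on the higher side and 0 on the lower, with Gar1 (2.43), Nob1 (2.36), Nhp2 (2.30) and Rrp9 (2.29) at the top. Gar1 and Nhp2 belong to the box H/ACA particles that modify ribosomal RNA. In erythroid-like cells of both libraries 10 were higher and 2 lower, and the median log2 ratio was 0.23, against 1.39 over all cells. Of 77 mitochondrial ribosomal proteins, which build the separate ribosome of that organelle, 60 were higher and 2 lower, led by Mrps18b (3.17), Mrps22 (2.85), Mrpl46 (2.52) and Mrpl35 (2.39). In erythroid-like cells 25 were higher and 2 lower, with 17.8% of all genes higher and 27.4% lower there.

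Among ribosomal proteins that carry other symbols, Fau, a fusion with Rps30, had a log2 CPM ratio of -0.61 and Gnb2l1, the scaffold protein Rack1 of the small subunit, of 1.81. Of 8 other transcripts with a terminal oligopyrimidine tract 3 passed 2-fold on the higher side and 1 on the lower. Npm1, a nucleolar chaperone, was at 2.24, Naca at 1.87 and Btf3, its partner in the nascent chain complex, at 1.65. The intermediate filament gene Vim was at -1.89 over all cells and 1.42 in erythroid-like cells, the only one of the 8 past 2-fold in opposite directions in the 2 comparisons.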

How the data were processed

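The submitters' processing notes name Cell Ranger 2.1, Seurat 2 and the mm10 build; strand and multi-mapping settings are not given in the sources used here. What the authors deposited are raw UMI counts for each gene in each barcode. Barcodes with under 500 UMIs (0 in both libraries) or at least 10% mitochondrial UMIs (122 Car1-GFP, 19 marrow) were left out. Scrublet doublets (171 marrow cells) were removed; 9 marked Car1-GFP cells (0.375%) were kept, since the caller marked under 0.5%. Libraries were clustered separately with scanpy 1.11.5, leaving Rpl and Rps genes out (2000 variable genes, 30 components, 15 neighbours, Leiden resolution 1, seed 1). Clusters were named after the marker list with the greatest average log2 ratio over the other marrow cells (for Car1-GFP clusters, over the marrow library), if at least 3 markers passed 2-fold and no other list led the top genes; this naming rule was set after the data were seen, and erythroid progenitor and late erythroid clusters were merged.

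Counts were summed over cells. Shares carry exact binomial (Clopper-Pearson) intervals at 95%, and ratios of shares the interval of the conditional binomial. Scaling factors came from edgeR 4.0.16 (TMM) and DESeq2 1.42.0. Gene positions and coding lengths are from GENCODE M21, which held 27645 of the 27998 identifiers, and 86 of the 87 symbols had a coding length. Named members were those departing (up to 8 per side), the 5 most abundant per library, paralog pairs, Diamond-Blackfan genes and up to 4 genes of each other list; others, among them Rpl37, Rpl37a, Rpl4 and those named by class or along globin share, were added after their values were seen. The members, lists and markers were chosen with earlier results of these data known. Some items of these lists are not reported here.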

Additional observations from a re-analysis of the deposited data

Results flagged for a closer look

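The 16 rows with -ps in the symbol, annotated as pseudogene copies and used in no comparison above, together held a signal far above the limit of 3 counts. They made up 0.61% of UMIs in the Car1-GFP library (260920 UMIs) and 0.733% in the marrow library (60874 UMIs). All 16 had more than 3 UMIs over both libraries, though Rpl36-ps4 had only 4 in the Car1-GFP library and 0 in the marrow library. There are no control samples for these rows. Whether their UMIs belong to the parent genes was not tested.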

How the results depend on the processing

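No paired analysis was possible because each group has 1 library; for the same reason no replicate could be left out. The Car1-GFP share (33.9%) was 33.8% over all barcodes, 34.5% with equal weight per cell and 35.6% without globin, mitochondrial, S100a8 and S100a9 UMIs. The marrow share (19.5%) was 19.5%, 17.6% and 22.6% under these settings and 20.9% in cells with at least 1000 UMIs. The ratio of the highest to the lowest marrow class (4.44) was 5.09 at Leiden resolution 2, 4.97 with ribosomal protein genes in the clustering, 4.74 with equal weight per cell (stem and multipotent progenitor-like cells then highest), 4.62 in cells with at least 1000 UMIs and 3.13 without the abundant transcripts named above; the lowest class was neutrophil-like throughout. The difference along globin share (-2.19 percentage points) was -2.12 over all barcodes, -1.71 with 5 bins, -4.28 as a share of all UMIs, -2.37 in erythroid-like clusters only, -6.71 in the marrow library and -3.82 between fixed cut points. The cut points, and the limit on globin below, were chosen after seeing the data.

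Members departing between libraries (9 higher, 12 lower) became 17 higher at 1.5-fold, 44 higher and 5 lower as shares of all UMIs, and 4 higher in erythroid-like cells, with or without the limit on globin. The single pair departing between marrow classes became 16 at 1.5-fold, 101 as shares of all UMIs, 2 at Leiden resolution 2 and 0 with at least 100 UMIs. Among the lists, erythroid-like cells gave 2 elongation factors higher, 2 initiation factors lower, 25 mitochondrial ribosomal proteins higher, 10 biogenesis genes higher and 2 lower, 0 other oligopyrimidine transcripts lower, and 9 ribosomal protein genes higher and 9 lower. The 9 higher ribosomal protein genes include Rpl39l, with 0 UMIs in erythroid-like marrow cells. TMM and DESeq2 factors gave 5 other oligopyrimidine transcripts higher. Another 63 values of these results kept their direction and stayed within the limits set, and of the shares of single classes 12 did and 46 moved beyond their counting interval. The cause of these shifts was not tested. The depth of the marrow library (median 1031 UMIs per cell) limits Rpl3l and Rpl39l to descriptions.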

Other observations

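Clusters outside the classes compared above are given as values. The 30 macrophage-like marrow cells, too few for the comparisons, had 12.2% of UMIs in ribosomal protein genes (11.8 to 12.5%), between the neutrophil-like and monocyte-like values, with 10.9% of their UMIs from S100a8 and S100a9. The 38 unnamed marrow cells had 19.8% and the 203 unnamed Car1-GFP cells, led within their library by S100a8, S100a9, Camp, Ngp, Pf4 and Elane, 33.97%. S100a8 and S100a9 were 0.124% of the UMIs of these 203 cells and 0.0053% of those of the erythroid-like Car1-GFP cells.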
